A study of Homo sapiens with 16 samples.

Results

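Integrins are the transmembrane receptors by which cells hold on to the extracellular matrix, and each is a dimer of an α and a β subunit. The 9 subunits described here, ITGA2, ITGA3, ITGA5, ITGA6, ITGAV, ITGB1, ITGB3, ITGB4 and ITGB5, were chosen by gene symbol after each listed transcript had been matched to its gene. All 9 were among the 10799 transcripts listed for MDA-LM2 and parental cells, and 8 of 9 were among the 8980 listed for the HNRNPC knockdown, where ITGB3 was not listed. Ribosome-protected footprints (RPF, the mRNA fragments that translating ribosomes shield from nuclease) and RNA were sequenced from the same lysates of 4 human breast cancer lines, with 2 replicates of each line and 16 libraries in all. Parental cells were MDA-MB-231, a line classed as triple receptor negative and labelled poorly metastatic, and MDA-LM2 is their derivative, labelled as highly metastatic to the lungs. sgControl and sgHNRNPC are MDA-MB-231 cells that carry dCas9-KRAB, the CRISPR interference repressor, with a control guide or a guide against HNRNPC, and they were a transduced population sorted for the repressor rather than a described clone. Cells given a guide by lentivirus were selected with puromycin or blasticidin. All 4 lines were otherwise grown untreated in high-glucose DMEM with serum, and lysed with cycloheximide, which holds ribosomes in place. The questions were how the lung-metastatic line differed from its parent, and how cells with less HNRNPC, a nuclear protein that binds runs of U, differed from their control.

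The α chain largely sets what an integrin binds. With ITGB1, the most widely shared β chain, ITGA2 forms a collagen receptor, ITGA3 and ITGA6 form laminin receptors and ITGA5 forms the classical fibronectin receptor. ITGAV joins ITGB3 or ITGB5 in receptors for vitronectin and other ligands with an RGD motif, and ITGA6 joins ITGB4 in the laminin receptor of hemidesmosomes, the junctions that anchor keratin filaments to the basement membrane. In breast cancer cells these receptors are studied for their part in adhesion, migration and survival.

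Positions below are of the whole listed transcript on hg38 in GENCODE version 44, and RNA values covered its exons, UTRs included. ITGA2 (ENST00000296585) lies at chr5:52989352-53094779 on the plus strand, ITGA3 (ENST00000320031) at chr17:50056110-50090481 on the plus strand, and ITGA5 (ENST00000293379) at chr12:54395261-54419266 on the minus strand. ITGA6 (ENST00000409080) lies at chr2:172427586-172506459 and ITGAV (ENST00000261023) at chr2:186590056-186680901, both on the plus strand. ITGB1 (ENST00000302278) lies at chr10:32900318-32958230 on the minus strand, ITGB3 (ENST00000559488) at chr17:47253827-47313743 and ITGB4 (ENST00000200181) at chr17:75721459-75757818, both on the plus strand. ITGB5 (ENST00000296181) lies at chr3:124761948-124887365 on the minus strand. The listed ITGA6 isoform is not the canonical isoform of the annotation, and the others are. The mRNAs differ in build: ITGB4 has the longest coding sequence of the 9, 5469 bases, and the shortest 3′ UTR, 263 bases, whereas ITGA2 has a 3′ UTR of 4180 bases.

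Values were normalised counts per transcript, scaled separately for RNA and RPF and separately in each table, so changes were tested only within a table. RNA libraries of parental and MDA-LM2 cells held 7517953 to 8193031 reads, recovered from the steps of the values, and those of the knockdown held 5141959 to 6164753. RPF depth in reads is unknown, with totals of 650736 to 679726 and of 158011 to 167928 normalised counts. RPF values in the knockdown table were thus low, and its RPF intervals were wide. The mesenchymal markers VIM and CD44 ranked at or above percentile 93.9 of RNA per kilobase in both tables. ESR1, PGR, CDH1 and FOXA1 of the luminal and epithelial markers were not listed in either table, nor were PTPRC, PECAM1, CDH5, LUM, DCN and THY1 of the leukocyte, endothelial and fibroblast markers. Other markers of the same lists were present. ERBB2, the HER2 gene, was listed in both tables, at 797 and 812 normalised RNA counts in parental cells (percentile 71.1 per kilobase over the table). GATA3, at 8.46 to 18.6, and PDGFRB, at 44.3 and 38.0 in parental and 24.4 and 16.0 in MDA-LM2 cells, were listed only in the MDA-LM2 table and not tested. CD68, a macrophage marker, was at 279 to 500 in that table, and in the knockdown table at 724 and 751 in sgControl and 887 and 1016 in sgHNRNPC cells, a rise of 0.36 ± 0.06 (limma adjusted p = 3.8e-06). Its part in the subunit changes below was not tested. HNRNPC RNA, the guide target, was 2162 and 2146 in sgControl and 1147 and 1183 in sgHNRNPC, a fall of 0.89 ± 0.05 on the log2 scale (SE, limma adjusted p = 5.1e-28).

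In MDA-LM2 cells, RNA of ITGB3, ITGAV and ITGA6 rose, and no subunit passed the test for lower RNA. The rises were 3.06-fold for ITGB3, 1.73-fold for ITGAV and 1.49-fold for ITGA6. On ribosomes, ITGAV rose 1.40-fold and the collagen receptor subunit ITGA2 fell to 0.69-fold. ITGB1, ITGB4, ITGB5, ITGA3 and ITGA5 passed the test in neither. Changes are on the scale of log2 of the value plus 1, which understates those of low values, and a call means an adjusted p (Benjamini-Hochberg, over all 8393 genes tested with limma) under 0.05.

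ITGB3, the partner of ITGAV in the vitronectin receptor, had RNA values of 44.3 and 49.96 in parental cells and 158 and 135 in MDA-LM2 cells. Both MDA-LM2 values lay well above both parental values, and the log2 change was 1.61 ± 0.17 (SE, n = 2 a line, limma adjusted p = 0.0018). Its footprints were few, 7.40 and 4.61 in parental cells against 11.3 and 18.9 in MDA-LM2 cells. The order of the lines was the same, but the RPF change of 1.19 ± 0.45 did not pass the test (limma adjusted p = 0.079). ITGB3 entered the test through its MDA-LM2 libraries, since its parental RPF mean of 6.01 was under the minimum mean of 10. It also stood last of the 9 subunits in both lines, at percentile 0.97 of RNA per kilobase in parental cells and 9.09 in MDA-LM2 cells.

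ITGAV, the α chain that ITGB3 and ITGB5 share, had RNA values of 288 and 299 in parental cells and 473 and 545 in MDA-LM2 cells. Its footprint values were 103 and 88.4 against 133 and 136. Neither kind of library showed an overlap between lines. The log2 RNA change was 0.79 ± 0.12 (limma adjusted p = 0.0077) and the log2 RPF change 0.49 ± 0.14 (limma adjusted p = 0.018). The RNA call held when any 1 lysate was left out, but such a fit keeps a single library of a line, without spread of its own. Holding there is thus no support for the call. The RPF call was lost without parental replicate 2, with a change of 0.38. It was also lost without the first or the other MDA-LM2 lysate, with changes of 0.50 and 0.47.

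ITGA6, the laminin-binding partner of ITGB4 and ITGB1, had RNA values of 1708 and 1706 in parental cells and 2562 and 2527 in MDA-LM2 cells, a log2 change of 0.58 ± 0.11 (limma adjusted p = 0.014). The change was 0.58 without parental replicate 1 and 0.57 without parental replicate 2, but with adjusted p of 0.22 and 0.20. Its footprints were 261 and 262 in parental cells and 303 and 345 in MDA-LM2 cells. This difference of 0.31 ± 0.11 on the log2 scale missed the threshold (limma adjusted p = 0.052).

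ITGA2, the collagen-binding α chain, was the subunit with lower footprints in MDA-LM2 cells: 389 and 488 in parental cells against 272 and 331. The groups did not overlap, and the log2 RPF change was -0.54 ± 0.11 (limma adjusted p = 8.9e-04). Its RNA values were 1057 and 1170 against 678 and 898, also without overlap, and the log2 RNA change of -0.51 ± 0.15 did not pass the test (limma adjusted p = 0.067). The estimates for RNA and RPF were thus of like size. The RNA estimate stayed negative whichever lysate was dropped. It was -0.31 and -0.71 with the first or the other MDA-LM2 lysate dropped, and -0.58 and -0.44 with the first or the other parental lysate dropped. Such a fit keeps a single library of a line and so holds no spread within that line. It therefore cannot decide whether ITGA2 RNA fell.

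The other β chains and α chains differed less. ITGB4, the hemidesmosome subunit, had RNA values of 3359 and 3573 in parental cells and 4050 and 4285 in MDA-LM2 cells, a log2 change of 0.27 ± 0.11 (limma adjusted p = 0.16). For ITGB1, the 95% interval of the log2 RNA change ran from -0.06 to 0.48 and that of the RPF change from -0.07 to 0.27. ITGB5 had RNA values of 2015 and 1858 against 1764 and 1463, a change of -0.27 ± 0.13 (limma adjusted p = 0.20). ITGA3, with 13017 and 12858 against 15047 and 13603 normalised RNA counts, changed by 0.15 ± 0.13, and ITGA5 by -0.11 ± 0.11. These intervals leave room for moderate differences that 2 replicates a line could not show.

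**Figure D1:**
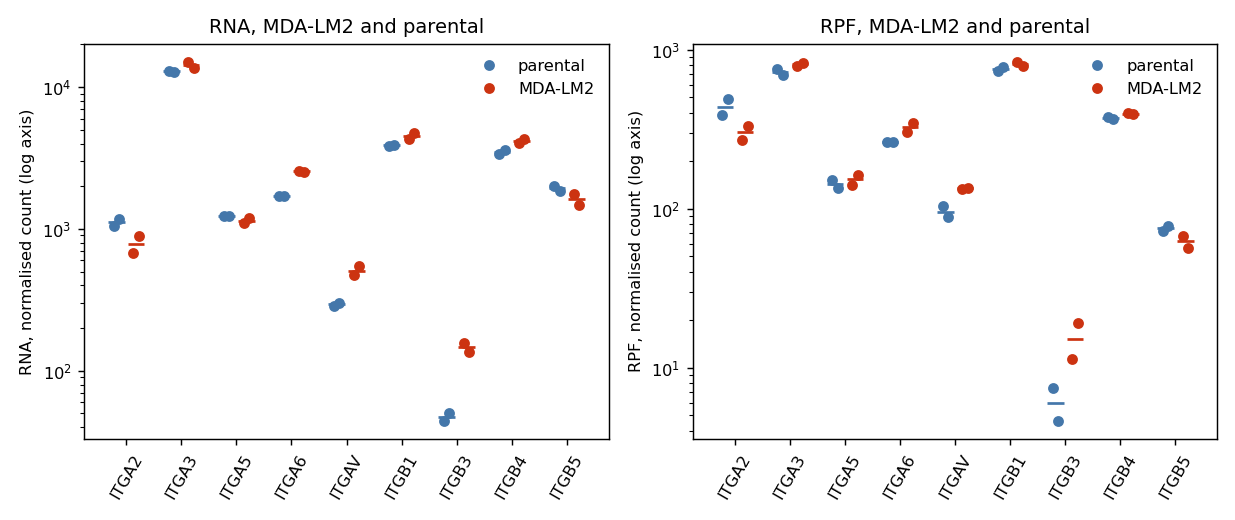
Normalised RNA counts (left) and RPF counts (right) of the 9 integrin subunits on log axes, with a point for each of the 2 replicates of parental cells (blue) and MDA-LM2 cells (red) and a line at each mean. ITGB3 lies lowest in both panels and ITGAV, ITGA6 and ITGB3 lie higher in MDA-LM2 cells, whereas ITGA2 lies lower.

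In all, 3 of 9 subunits were called for RNA in MDA-LM2 cells, all higher, where 15.2% of all genes tested were called, 5.80% as higher and 9.44% as lower. Leaving out 1 lysate left a line with a single library and no spread of its own. The count then fell or rose as the calls over all genes did. For RPF, 2 of 9 were called, 1 higher and 1 lower, against 12.0% of all genes, 5.00% higher and 7.03% lower. RNA values of the lines did not overlap for 9 of 9 subunits, against 62.1% of genes, and RPF values for 8 of 9, against 53.3%. These counts, and the medians below, include ITGB3, which reached the RPF minimum only through MDA-LM2 cells, the line where it was higher. The RNA calls besides it were ITGAV and ITGA6. With 9 genes these counts are a description of the subunits and not a test of them as a family. The median log2 RNA change was 0.21 over the subunits and -0.02 over all genes, and the median RPF change was 0.10 and -0.01.

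Scaling and base composition bear on these directions. With libraries set to equal totals, the median log2 RNA change over all genes moved by 0.17, the share of RNA calls that were higher went from 38.1% to 66.6%, that of RPF calls went from 41.6% to 54.3%, and ITGA5 RNA turned from -0.11 to 0.06. Across 8215 transcripts, the log2 RNA change correlated with GC content at Pearson's r of -0.27 and the RPF change at -0.14, a description over transcripts of the same libraries. ITGAV and ITGA6, with GC contents of 38.3% and 42.6%, lie below the median of 48.0%, ITGB3 (49.7%) lies near it, and ITGB4 (63.6%) and ITGA3 (60.9%) lie above it. With the trend on GC content taken out of each library, the log2 RNA changes were 1.64 for ITGB3, 0.68 for ITGAV and 0.51 for ITGA6, all still called. ITGB4 at 0.53, ITGA3 at 0.37 and ITGA2 at -0.61 then passed the RNA test as well. Over all genes that fit called 1444 of 8215 for RNA, 669 higher and 775 lower. The RPF calls of ITGA2 and ITGAV stood in that fit, at -0.60 and 0.43.

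Changes in translational efficiency (TE, the RPF value over the RNA value of the same transcript) were called for 0 of 9 subunits in MDA-LM2 cells, where limma called 0.0357% of all genes, 3 of 8393. No subunit had an unadjusted p under 0.05, and logistic regression, the test of the study, also called 0 of the 9. For ITGAV, RPF over RNA was 0.358 and 0.296 in parental cells and 0.280 and 0.249 in MDA-LM2 cells, a log2 change of -0.30 with a 95% interval from -0.74 to 0.13. For ITGA6 it was 0.153 and 0.153 against 0.118 and 0.137, a change of -0.27 from -0.60 to 0.06. Both had higher ratios in the parental lysates than in the MDA-LM2 lysates, and in all 4 of 9 subunits had no overlap in TE, against 36.3% of all genes. For ITGA2 the ratio was 0.368 and 0.417 against 0.401 and 0.368, a log2 change of -0.03 from -0.51 to 0.46. The widest interval was that of ITGB3, from -1.37 to 0.53.

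After HNRNPC knockdown, RNA of ITGB4 and ITGA3 fell and RNA of ITGA2 and ITGB5 rose, by 0.80-, 0.91-, 1.12- and 1.14-fold. No subunit passed the test for RPF or TE. ITGB4, the hemidesmosome β chain, had the largest RNA change of the 8, and the footprint estimate lay on the same side.

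ITGB4 had RNA values of 599 and 512 in sgControl cells and 473 and 410 in sgHNRNPC cells. The groups did not overlap, and the log2 change was -0.33 ± 0.08 (SE, n = 2 a line, limma adjusted p = 0.0013). Its footprint values were 72.9 and 84.2 against 60.4 and 54.3, a change of -0.44 ± 0.18 (limma adjusted p = 0.55). ITGA3 RNA was 2623 and 2383 against 2314 and 2233, a change of -0.14 ± 0.05 (limma adjusted p = 0.026). Its footprints went the other way in estimate, 151 and 136 against 154 and 165, a change of 0.16 ± 0.16 that did not pass the test.

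ITGA2 RNA was 1687 and 1632 in sgControl cells and 1868 and 1848 in sgHNRNPC cells, a log2 change of 0.16 ± 0.05 (limma adjusted p = 0.0092). ITGB5, a β chain of vitronectin receptors, had RNA values of 633 and 655 against 778 and 690, a change of 0.19 ± 0.07 (limma adjusted p = 0.041). None of the 4 calls held when every lysate in turn was left out. ITGB4 changed by -0.22 without sgControl replicate 1 (adjusted p = 0.13) and by -0.23 without sgHNRNPC replicate 2 (adjusted p = 0.13). ITGA3 changed by -0.07 and -0.11 without these same lysates (adjusted p of 0.50 and 0.23). ITGA2 lost its call without sgControl replicate 2, sgHNRNPC replicate 1 or sgHNRNPC replicate 2 (adjusted p of 0.099, 0.076 and 0.053), with changes between 0.14 and 0.17. ITGB5 lost it without either sgControl replicate or sgHNRNPC replicate 1 (adjusted p of 0.18, 0.050 and 0.53), with changes of 0.16, 0.21 and 0.10, and also with libraries set to equal totals (adjusted p = 0.091), with no filter (adjusted p = 0.058) or with a filter on RNA alone (adjusted p = 0.059).

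The 4 other subunits of the knockdown table did not pass the RNA test. ITGA6 RNA was 2652 and 2683 against 2887 and 2812, a log2 change of 0.09 ± 0.04 (limma adjusted p = 0.13). ITGAV changed by 0.12 ± 0.07 and ITGB1 by -0.06 ± 0.04. ITGB1, the shared β chain, had RNA values of 8764 and 8475 against 8436 and 8139, which did not overlap but differed by little. ITGA5 values overlapped, at 366 and 350 against 355 and 335. For RPF, the intervals of these 4 all included 0 and reached from -0.37 to 0.65 on the log2 scale.

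**Figure D2:**
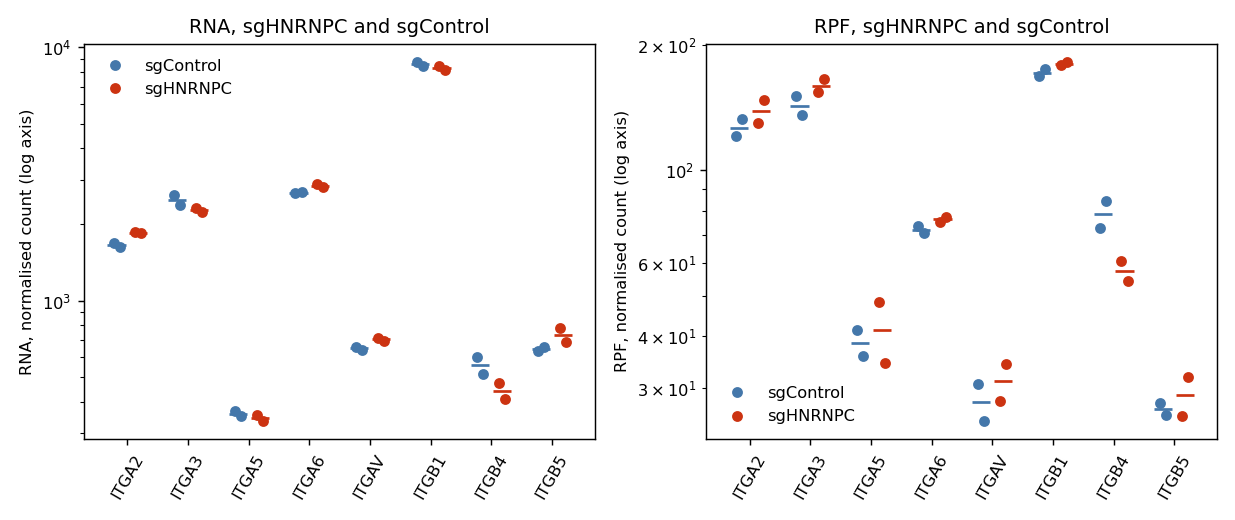
Normalised RNA counts (left) and RPF counts (right) of the 8 subunits listed in the knockdown table on log axes, with a point for each of the 2 replicates of sgControl cells (blue) and sgHNRNPC cells (red) and a line at each mean. The lines lie close together for every subunit, and ITGB4 lies lower in sgHNRNPC cells in both panels.

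In the knockdown 4 of 8 subunits were called for RNA, 2 higher and 2 lower, where 16.0% of all 4283 genes tested were called, 4.72% higher and 11.3% lower. RPF calls were 0 of 8 against 0.0233% of all genes, a single gene, and TE calls were 0 of 8 against 0%. At an unadjusted limma p under 0.05, 1 subunit passed for RPF (ITGB4) and 0 for TE, as did 329 and 332 of all genes, and logistic regression called 0 of the 8 for TE. RNA values did not overlap for 7 of 8 subunits against 54.8% of genes, RPF values for 4 of 8 against 37.9%, and TE values for 2 of 8 against 36.6%. The share of RNA calls over all genes that were higher was 29.5%, 21.6% with libraries set to equal totals, 43.4% after quantile normalisation and 46.5% after the correction for GC content. In that last fit ITGB4 (-0.26), ITGA2 (0.19) and ITGB5 (0.23) stayed called, ITGA3 did not (-0.08, limma adjusted p = 0.25, and 0.059 after quantile normalisation) and ITGA6 was called (0.12, limma adjusted p = 0.041).

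The pair of comparisons can be set side by side, without a test between them. ITGA2 and ITGB5 RNA had negative estimates in MDA-LM2 cells and rose after knockdown. ITGB4 and ITGA3 RNA had positive estimates in MDA-LM2 cells and fell after knockdown. The uncalled ITGB1 estimates also differed in sign, at 0.21 and -0.06. ITGAV (0.79 and 0.12), ITGA6 (0.58 and 0.09) and ITGA5 (-0.11 and -0.05) had the same sign in both. No subunit was called for RNA in both comparisons. HNRNPC RNA itself was 2768 and 2664 in parental cells and 2197 and 1930 in MDA-LM2 cells, a log2 change of -0.40 ± 0.12 (limma adjusted p = 0.062).

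**Figure D3:**
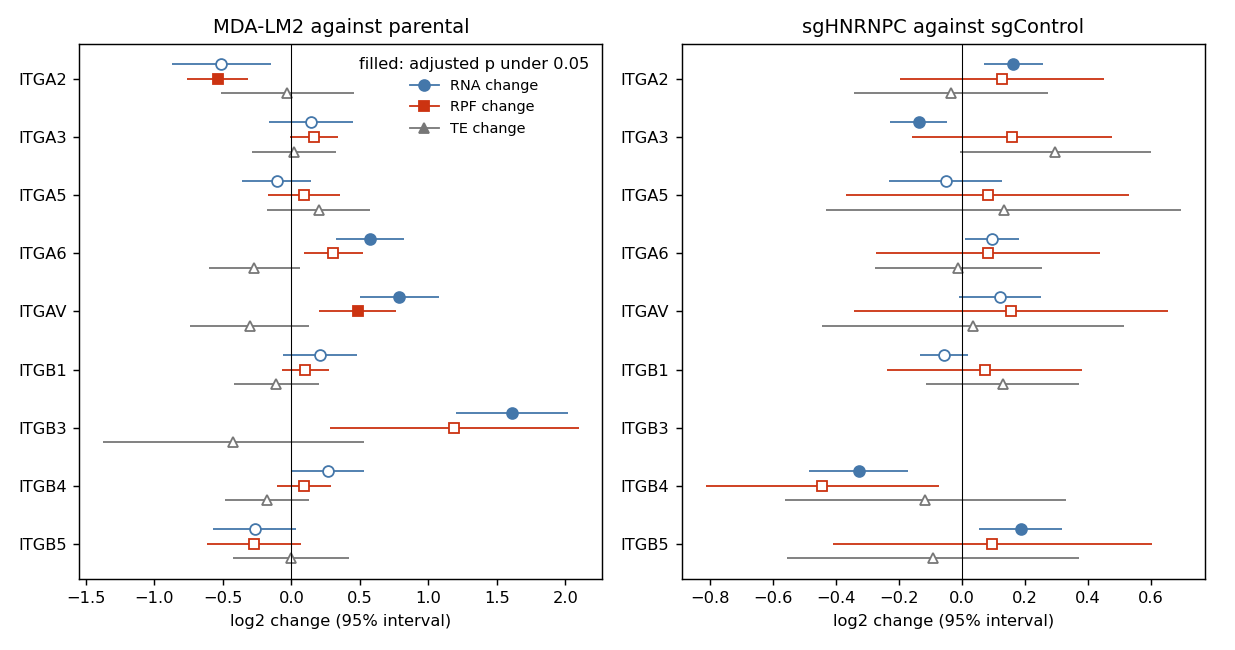
Log2 changes of RNA (blue circles), RPF (red squares) and TE (grey triangles) of each subunit with 95% intervals from limma, for MDA-LM2 against parental cells (left) and sgHNRNPC against sgControl cells (right). Filled symbols passed an adjusted p of 0.05: RNA of ITGB3, ITGAV and ITGA6 and RPF of ITGAV and ITGA2 on the left, and RNA of ITGA2, ITGA3, ITGB4 and ITGB5 on the right.

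Since HNRNPC binds runs of U, the 3′ UTRs were searched on the transcript strand for a C followed by 6 or more U. Of all listed transcripts with a 3′ UTR, 42.9% in the MDA-LM2 table and 43.2% in the knockdown table held such a run. Of the 9 subunits, 5 did: ITGA2 and ITGB5 with 2 sites each and ITGA6, ITGB1 and ITGB3 with 1. ITGA3, ITGA5, ITGAV and ITGB4 held none. The windows below, of 24 bases, run from 5′ to 3′ in DNA letters, with the C and its whole run in capitals.
ITGA2, chr5:53094490-53094513: ataagtCTTTTTTcaaatgtggtg
ITGA2, chr5:53094695-53094718: aacccaCTTTTTTcataccacatt
ITGA6, chr2:172505723-172505746: ggggggCTTTTTTcttttcggaaa
ITGB1, chr10:32900662-32900685: gtaagaCTTTTTTTatgagtactt
ITGB3, chr17:47313341-47313364: tcttttCTTTTTTTTTTTTTTTTT
ITGB5, chr3:124763202-124763225: gtttggCTTTTTTcacattgatca
ITGB5, chr3:124762502-124762525: tttgagCTTTTTTcccgcagggcc
The sites of ITGA2 start at bases 3897 and 4102 of a 3′ UTR of 4180 bases, close to its end, and those of ITGB5 at bases 404 and 1104 of 1675. The run of ITGB3 spans 17 U. After knockdown, the subunits with a C followed by 6 or more U included both calls up (ITGA2 and ITGB5) and no call (ITGA6 and ITGB1). Those without it included both calls down (ITGB4 and ITGA3) and no call (ITGA5 and ITGAV). Shares of calls were not taken over all transcripts with and without such a run, and a link between run and call was not tested. Runs of U after another base were not searched for, so these subunits may hold other runs. None of these calls held when every lysate in turn was left out. A match in the letters is not a binding site, and whether the protein bound these mRNAs was not analysed here.

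Levels of different subunits were compared per kilobase, of the transcript for RNA and of the coding sequence for RPF. In RPF per kilobase ITGB1 stood first and ITGA3 next in all 4 lines: ITGB1 at 308 and 325 and ITGA3 at 239 and 218 in parental cells, and 70.3 and 72.9 against 47.7 and 42.9 in sgControl cells. In parental cells the order went on with ITGA2, ITGA6, ITGB4, ITGA5, ITGB5, ITGAV and ITGB3, and neighbours overlapped between replicates only for ITGB5 (30.2 and 32.3) and ITGAV (32.8 and 28.1). In MDA-LM2 cells ITGA6 (92.5 and 105) stood ahead of ITGA2 (76.6 and 93.3), with overlap, and ITGAV (42.1 and 43.1) ahead of ITGB5 (28.2 and 23.6), without. In sgControl and sgHNRNPC cells the first 4 were ITGB1, ITGA3, ITGA2 and ITGA6, without overlap between neighbours.

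RNA per kilobase gave another picture, and a different one in each table. ITGA3 led in parental cells, at 2663 and 2630, ahead of ITGB1 at 1036 and 1049. ITGB1 led in sgControl cells, at 2346 and 2269, ahead of ITGA3 at 536 and 487. These libraries were normalised separately, so only the order within a line can be read. Of the summed RNA per kilobase of the 5 α chains, ITGA3 made up 77.6% and 77.1% in parental cells but 38.4% and 36.4% in sgControl cells, and ITGA6 8.76% and 8.79% but 33.4% and 35.2%. In footprints per kilobase the same shares were 47.0% and 43.0% against 37.6% and 35.4% for ITGA3, and 15.7% and 15.8% against 17.6% and 17.8% for ITGA6. The α chains thus differed far more between the tables in RNA than on ribosomes.

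**Figure D4:**
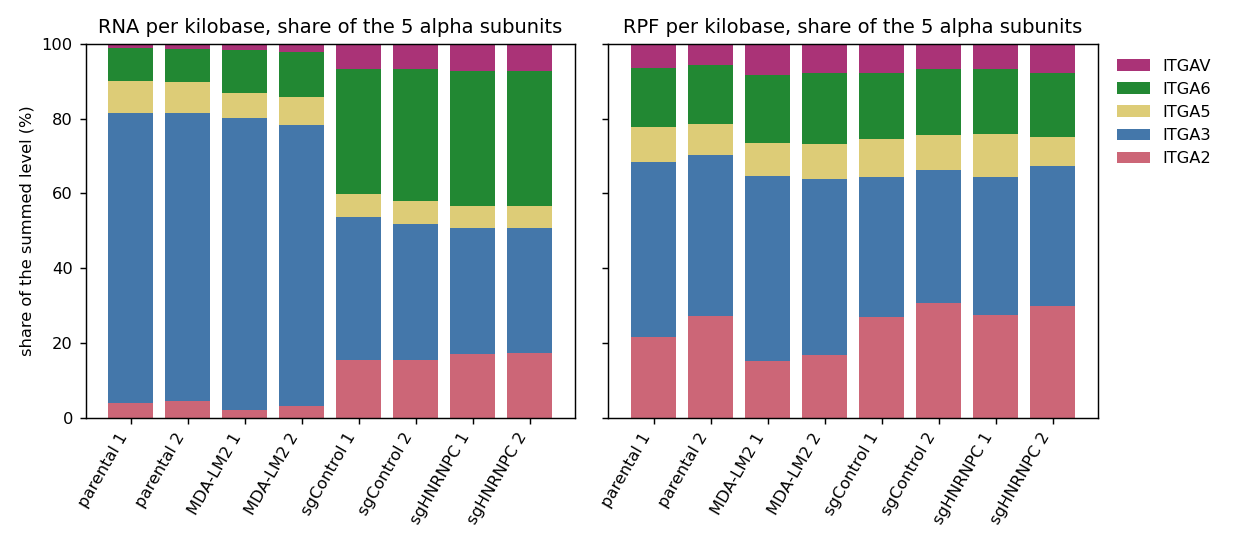
Share of each α subunit, in percent, in the summed level per kilobase of the 5 α subunits, for RNA (left) and RPF (right), with a bar for each replicate of the 4 lines. The RNA bars fall into a pattern for each table, with ITGA3 at 75.2% to 78.1% in parental and MDA-LM2 cells and 33.5% to 38.4% in sgControl and sgHNRNPC cells, whereas the RPF bars are more alike.

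This difference between the tables followed base composition. The log2 ratio of sgControl to parental RNA, centred on its median over 8736 shared transcripts, was 1.60 for ITGAV, 1.60 for ITGB1, 1.10 for ITGA6 and 1.03 for ITGA2, whose GC contents were 38.3% to 42.6%. It was -1.13 for ITGB5, -1.33 for ITGA5, -1.91 for ITGA3 and -2.18 for ITGB4, with GC contents of 54.6% to 63.6%. Over all shared transcripts, the ratio correlated with GC content at Pearson's r of -0.83 for RNA and -0.08 for RPF, given as a description over transcripts of the same libraries. The centred RPF ratios of the 8 subunits lay between -0.37 (ITGA3) and 0.48 (ITGB5). Table and line cannot be told apart here, since no line is in both tables.

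**Figure D5:**
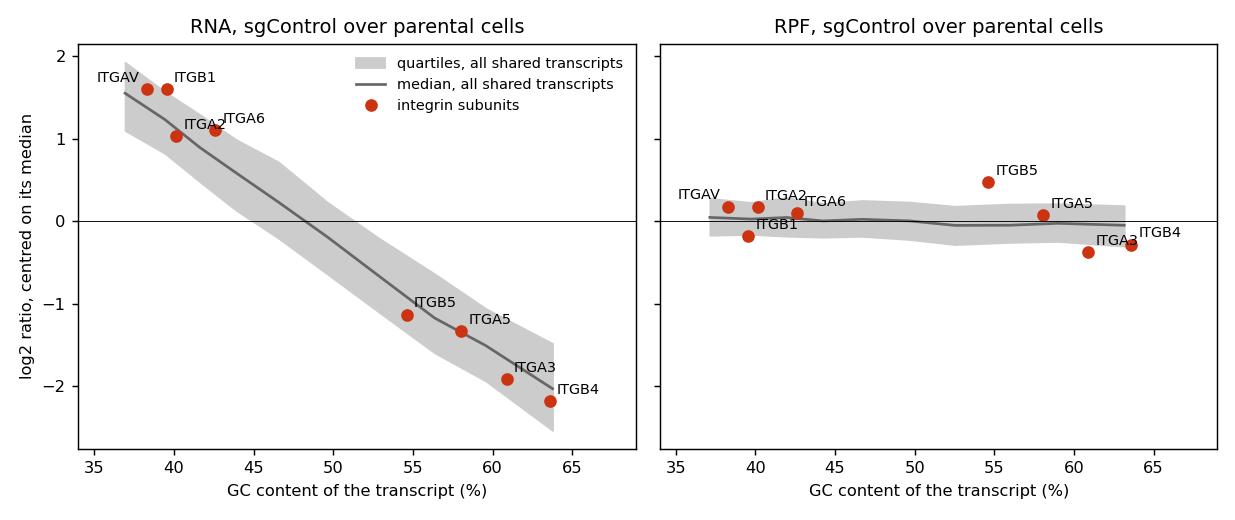
Log2 ratio of sgControl to parental cells, centred on its median, against the GC content of the transcript in percent, for RNA (left) and RPF (right). Red points are the 8 subunits in both tables, and the line and band are the median and quartiles of all shared transcripts in 10 groups of GC content; the RNA points run from 1.60 to -2.18 along the band, and the RPF points stay between -0.37 and 0.48.

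TE per length, set against the median gene of the same lysate, carried that difference with it. In parental cells ITGA2 was highest, at 1.68 and 1.85 on the log2 scale, and ITGAV next, at 1.66 and 1.37. ITGB5 was lowest, at -1.93 and -1.73, after ITGA3, at -1.50 and -1.62. In sgControl cells ITGA2 was again first, at 0.61 and 0.76, with overlap with ITGB4 at 0.34 and 0.74, and ITGB1 was last, at -1.79 and -1.72. ITGB1 had stood above the median in parental cells, at 0.23 and 0.28. An order of TE levels between subunits is therefore tied to its table, and by the mean of its replicates ITGA2 alone kept the same place, the first, in all 4 lines.

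The bases around the start codon, which bear on how readily ribosomes begin there, are shown for the subunits at either end of that order and for those that lack a feature of the usual context. The start codon is in capitals.
ITGA2: agacccaggATGggg
ITGAV: acttcggcgATGgct
ITGA6: cgtccgcccATGgcc
ITGB1: gcggaaaagATGaat
ITGB3: gcggacgagATGcga
ITGB5: cgccccaccATGccg
A purine stood at the third base before the start in 8 of 9 subunits, ITGA6 being the exception, against 86.1% of transcripts in the MDA-LM2 table and 86.9% in the knockdown table. A G followed the start in 6 of 9, and ITGB1, ITGB3 and ITGB5 lacked it. Both features stood together in 5 of 9, against 46.7% and 47.6% of transcripts.

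Partner subunits were set against each other per kilobase in each lysate, as a description with no test. For ITGAV and ITGB3, the RNA ratio of α to β fell from 5.49 and 5.05 in parental cells to 2.53 and 3.41 in MDA-LM2 cells. For ITGAV and ITGB5, the RPF ratio was 1.08 and 0.87 in parental cells and 1.49 and 1.82 in MDA-LM2 cells. For ITGA2 and ITGB1 it was 0.357 and 0.424 against 0.220 and 0.283. For ITGA6 and ITGB4 it was 1.16 and 1.19 against 1.27 and 1.47 in these lines, and 1.68 and 1.40 in sgControl cells against 2.08 and 2.38 in sgHNRNPC cells. The lines did not overlap in any of these ratios, which were picked for that. Of all 8 pairings possible in the MDA-LM2 table, the lines were apart for 7 in RNA and 6 in RPF, and of 7 in the knockdown table for 5 in RNA and 1 in RPF. Single genes were apart for 62.1% in RNA and 53.3% in RPF, and for 54.8% and 37.9% in the knockdown. No such share was taken over pairs of other genes. Many of the pairings share ITGB1 or ITGAV, so the counts only describe these pairs. For ITGA3 and ITGB1, the RPF ratio overlapped, at 0.777 and 0.671 in parental cells and 0.718 and 0.791 in MDA-LM2 cells. Within the footprints of the 5 α chains, the share of ITGA2 was 21.6% and 27.2% in parental cells and 15.1% and 16.8% in MDA-LM2 cells, and that of ITGAV 6.44% and 5.55% against 8.31% and 7.76%.

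The genes nearest in RNA profile were taken over the 4 RNA libraries of parental and MDA-LM2 cells, by Euclidean distance of log2 values centred on their mean. For ITGB3, the subunit with the largest RNA change in MDA-LM2 cells, they were MAGED4, NNMT, a nicotinamide methyltransferase, and COL6A1, a collagen VI chain, at distances of 0.076, 0.11 and 0.14. Over 4 libraries a near profile is mostly a log2 change of like size, here 1.63, 1.56 and 1.66 against 1.61 for ITGB3. Shared regulation was not tested. COL6A1 RNA was 945 and 998 in parental cells and 3148 and 3016 in MDA-LM2 cells.

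Among the matrix ligands of these receptors, MDA-LM2 RNA rose for 6 and fell for 1 of 18 tested, against 5.80% and 9.44% of all genes, and footprints rose for 7 and fell for 1, against 5.00% and 7.03%. The median log2 changes were 0.20 and 0.18, and -0.02 and -0.01 over all genes. This list and those of the next paragraphs were chosen with earlier results of these data known. Their counts are therefore a description and not a test. COL1A1, a collagen I chain, had the largest rise, from RNA values of 9.97 and 21.0 to 580 and 879 and footprint values of 4.95 and 2.14 to 198 and 185, so that it too reached the RPF minimum through MDA-LM2 cells. LAMA4, a laminin α chain, changed by 1.95 ± 0.14 in RNA, and tenascin C (TNC) by 1.28 ± 0.14 in RNA and 1.56 ± 0.14 in RPF (limma adjusted p of 3.5e-04, 0.0019 and 2.6e-10). LAMB3, a chain of laminin-332, the ligand of the ITGA3 and ITGA6 receptors, rose by 0.79 ± 0.09 in RPF (limma adjusted p = 8.7e-08). The gene that fell was THBS1, thrombospondin 1, by 0.95 in RNA and 0.65 in RPF. After knockdown, RNA fell for 9 and rose for 0 of 15 ligands tested, against 11.3% and 4.72% of all genes, with a median of -0.23 against -0.04 over all genes. The matricellular proteins CCN1 and CCN2 changed by -0.41 ± 0.05 and -0.51 ± 0.07 (limma adjusted p of 2.6e-11 and 1.0e-08). No ligand was called for RPF or TE in the knockdown, or for TE in MDA-LM2 cells.

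Proteins that activate integrins or tie them to actin were called in MDA-LM2 RNA for 2 rises and 1 fall of 18, where 15.2% of all genes were called, and in RPF for 3 rises and 4 falls, where 12.0% were. Tensin 3 (TNS3) RNA went from 1868 and 1868 to 839 and 855, a log2 change of -1.14 ± 0.10, and its RPF changed by -0.78 ± 0.14 (limma adjusted p of 9.0e-04 and 1.5e-04). FERMT1, a kindlin that activates integrins, rose by 0.67 ± 0.12 in RNA, and TLN2, a talin, by 0.53 ± 0.12. The actin crosslinkers ACTN4 and ACTN1 changed in RPF by -0.38 ± 0.08 and 0.40 ± 0.09. After knockdown, 7 of 14 fell in RNA and 0 rose, against 11.3% and 4.72% of all genes, among them ACTN4 (-0.22 ± 0.04) and FLNA (-0.20 ± 0.04), a filamin that crosslinks actin. Both hemidesmosome partners of ITGB4 that were tested, DST and PLEC, fell in RNA after knockdown as ITGB4 did, by 0.20 and 0.16, and DST rose in RPF in MDA-LM2 cells by 0.78 ± 0.14 (limma adjusted p = 1.5e-04).

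Of the membrane proteins that associate with integrins, 3 rose and 3 fell of 13 in MDA-LM2 RNA, where 15.2% of all genes were called, and 4 rose and 5 fell in RPF, where 12.0% were. Caveolin 1 (CAV1) fell by 0.62 in RNA and 0.54 in RPF, and the tetraspanins CD63 and CD9 fell by 0.60 and 0.51 in RPF. Syndecan 1 (SDC1) RNA rose by 0.66 ± 0.13 and SLC3A2, the CD98 heavy chain that binds β tails, by 0.49 ± 0.11. After knockdown 1 of 13 rose and 4 fell in RNA, where 16.0% of all genes were called, with CD9 at -0.41 ± 0.06, CAV1 at -0.25 ± 0.04 and SLC3A2 at 0.35 ± 0.08. Of 15 signalling partners in MDA-LM2 cells, 1 fell in RNA, the adaptor GIT1 (-0.55 ± 0.13), and 3 fell in RPF, the small GTPases RAC1 (-0.43 ± 0.12), CDC42 (-0.39 ± 0.11) and RHOA (-0.32 ± 0.11), again against 15.2% and 12.0% of all genes. None of 10 was called after knockdown. None of 3 inhibitors of activation was called in MDA-LM2 cells, and none reached the minimum in the knockdown table. Of 7 genes of integrin uptake and recycling, 1 fell in RPF in MDA-LM2 cells, against 7.03% of all genes. This was AP2M1, a subunit of the clathrin adaptor AP-2 (-0.37 ± 0.12). After knockdown 1 of 7 rose in RNA, AP2M1 (0.32 ± 0.05), and 1 fell, ARF6 (-0.27 ± 0.04), against 4.72% and 11.3% of all genes.

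Of 17 further integrin subunits, 4 were listed for MDA-LM2 and parental cells and 2 were tested. Both were called for RNA, where 15.2% of all genes were. Neither was called for RPF (limma adjusted p of 0.056 for ITGA1 and 0.58 for ITGB2). ITGA1, another collagen-binding α chain, had RNA values of 68.7 and 70.9 in parental cells and 115 and 136 in MDA-LM2 cells, a log2 change of 0.83 ± 0.16 (limma adjusted p = 0.018). ITGB2, known as a leukocyte β chain, had 364 and 326 against 257 and 224, a change of -0.52 ± 0.13 (limma adjusted p = 0.041). The knockdown table listed 3 of the 17, and none was tested.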

How the data were processed

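The authors aligned reads to 1 mRNA per gene and divided counts by size factors (median of ratios), RNA and RPF apart, so the deposited unit is a signal on a linear scale. Submitters' notes name hg38, cutadapt 2.3, UMI-tools, Bowtie2 2.3.5 and SAMtools. RNA libraries came from a stranded total RNA kit. The methods describe an optional adjustment of RPF for stalled ribosomes, and do not say if it was applied here. Transcripts were matched to GENCODE version 44 (97.9% in each table).

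Genes that reached a mean of 10 in RPF and in RNA were tested with limma 3.58.1 in R 4.3.3, on log2 of the value plus 1, with a trended prior. RNA and RPF were each fitted in 4 libraries, and TE was the interaction over 8. Tests were two-sided. The replicates are described as biological duplicates. The fits were tested on simulated data. GC content came from the matched transcripts, and its correction subtracted a lowess trend per library. All 9 subunits are named, as are HNRNPC, the 3 nearest profiles and up to 3 called genes with the smallest adjusted p per list, kind and comparison. THBS1 was named after its values were seen, and some genes that the rule names are not reported here. Members and lists were chosen with earlier results of these data known, and the GC correction was added after seeing the data.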

Additional observations from a re-analysis of the deposited data

How the results depend on the processing

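Of the alternatives, an added value of 0.5 or 5, no filter, a minimum mean of 50, equal totals, filtering on RNA alone, robust moderation, TE within each lysate and logistic regression moved no count of subunits called by over 1.5 times. For MDA-LM2 RNA, 3 subunits were called, 5 after quantile normalisation (ITGA3 and ITGB4 added), 6 after GC correction and 2 to 7 leaving out 1 lysate. For MDA-LM2 RPF, 2 were called, 5 after quantile normalisation (ITGA3, ITGA6 and ITGB1 added), 3 with equal totals and 1 to 2 leaving out 1 lysate. For knockdown RNA, 4 were called and 1 to 2 leaving out 1 lysate. TE counts, and knockdown RPF counts, stayed at 0. After quantile normalisation, 1188 of all 8394 genes were called for MDA-LM2 RNA and 912 for MDA-LM2 RPF. With the replicate block, 4 subunits were called for MDA-LM2 RNA (ITGA2 added), 3 for RPF (ITGA6 added) and 4 for knockdown RNA. Same-numbered RNA deviations correlated at 0.23 and -0.0038 and RPF at 0.044 and 0.028, so the numbers were not taken to pair the samples. Over all genes, MDA-LM2 RNA calls were 1279, 440 at a minimum mean of 50 and 492 to 4235 leaving out 1 lysate (a lone sample was assumed to vary like the other line), and knockdown RNA calls were 684, 228 and 371 to 569. Logistic regression called 181 and 11 genes for TE. The edgeR test on recovered reads was not run.

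No called change reversed. Of uncalled changes, ITGA5 RNA in MDA-LM2 cells was 0.064 with equal totals, 0.023 after quantile normalisation and 0.058 after GC correction. TE changes in MDA-LM2 cells turned for ITGA3 (-0.095, -0.020 and -0.088 in those fits), ITGA2 (0.0090 after GC correction) and ITGB5 (0.011 with 5 added). Knockdown TE of ITGAV was -0.037 after quantile normalisation. Leaving out 1 lysate, MDA-LM2 ranges were -0.012 to 0.20 for ITGA5 RPF, -0.12 to 0.061 for ITGA2 TE, -0.083 to 0.12 for ITGA3 TE, -0.88 to 0.039 for ITGB3 TE and -0.11 to 0.10 for ITGB5 TE. Knockdown ranges were -0.16 to 0.32 for ITGA5 RPF, -0.057 to 0.25 for ITGB5 RPF, -0.13 to 0.063 for ITGA2 TE, -0.065 to 0.33 for ITGA5 TE, -0.049 to 0.026 for ITGA6 TE, -0.13 to 0.20 for ITGAV TE, -0.33 to 0.10 for ITGB4 TE and -0.33 to 0.15 for ITGB5 TE. The causes were not tested. RPF depth in reads is unknown, and 2 replicates a line limit every call.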
